A study of Saccharomyces cerevisiae with 96 samples.

Results

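The COS genes are a family of closely similar genes that lie near the ends of yeast chromosomes. On the Affymetrix YG-S98 array, 22 probe sets were annotated with COS genes alone, out of 9275 probe sets other than array controls, and these 22 were taken as the members whatever their values. They name 11 genes, COS1 to COS10 and COS12. Of the 22 probe sets, 15 name 1 gene and 7 name several, and 12 are of the types that the array design marks as shared between transcripts or common to a family. COS1, COS2, COS3 and COS5 were therefore read only together with relatives. The gene COS111 carries a similar name but is not a member of the family, and its probe set was not counted.

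Cos proteins belong to the DUP380 group of the yeast DUP family and span membranes several times. They are known to help carry ubiquitin-tagged plasma membrane proteins into multivesicular bodies and on to the vacuole. Genes next to telomeres can be silenced by the Sir complex, and the copies of a family at different chromosome ends share most of their sequence. Nonsense-mediated mRNA decay (NMD) is the pathway, set off by Upf1 during translation, that destroys mRNAs whose translation stops early, such as those whose first AUG is passed over in favour of a later AUG in another reading frame.

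The study followed RNA in a Nmd+ strain, S288C, and in the congenic Nmd- strain YRZ1, which carries *upf1Δ::KanMX4*. Each strain was sampled in 3 courses at 16 times from 0 to 60 min after thiolutin, which blocks transcription, and each of the 96 samples was measured on 1 array. The dose noted for the arrays was 10 µg per ml of thiolutin, except that the notes of the 4 min arrays give 14 µg per ml. Both strains received thiolutin, the 0 min samples stand for cells before the block, and the mutant is represented by 1 strain. Values are on the log2 scale and relative to the average RNA of an array, since RMA brings the probe intensities of all arrays to a common distribution. The number of courses limits the precision, and the p-values measure the spread between these numbered courses.

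The marker genes placed most arrays on the side of their label. *UPF1* itself, deleted in YRZ1, read 1.93 to 3.81 on 44 arrays labelled Nmd- and 5.42 to 7.44 on 46 labelled Nmd+, and KanMX4 read 11.6 to 12.5 and 3.34 to 6.26 on the same arrays. The other 6 arrays went against their label in either marker. These were the libraries labelled Nmd- replicate 1 at 10, 40, 45 and 50 min, with *UPF1* at 5.89 to 6.20, and the libraries labelled Nmd+ replicate 1 at 20 min and Nmd+ replicate 3 at 60 min, with KanMX4 at 8.28 and 11.3 while *UPF1*, at 6.27 and 5.43, stayed within the Nmd+ range. Means over the courses were therefore taken over the 10 times at which no array went against its label (0, 2, 4, 6, 8, 12, 15, 25, 30 and 35 min). Arrays were also placed on an axis of the common change over the courses, built without COS probe sets, on which 0 is the early state (0 to 4 min) and 1 the state at 25 to 35 min. The 3 Nmd- arrays at 6 min lay at 0.446 to 1.45 and those at 10 min at 0.931 to 1.05, whereas those at 4 and 8 min lay at -0.252 to 0.376, and the Nmd- replicate 1 array at 2 min lay at 0.845. The COS calls over the courses are also given without 2 and 6 min, and the called COS changes over time with 4 min in place of 2 min. Most other results that rest on these times are given only with them. The arrays were scanned in 3 periods, replicate 1 mostly in the first and replicates 2 and 3 mostly in the second.

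The chromosome places, from the RefSeq gene order of assembly R64 by locus tag, put every COS gene within the outermost 6 genes of an arm. COS12 (YGL263W) is the outermost gene on the left arm of chromosome VII, COS7 (YDL248W) on the left arm of IV, COS5 (YJR161C) on the right arm of X and COS2 (YBR302C) on the right arm of II. COS1 (YNL336W) is the second gene from the left end of XIV, COS3 (YML132W) the second from the left end of XIII and COS6 (YGR295C) the second from the right end of VII. COS8 (YHL048W) is the fourth from the left end of VIII, COS10 (YNR075W) the fourth from the right end of XIV, COS9 (YKL219W) the fifth from the left end of XI and COS4 (YFL062W) the sixth from the left end of VI.

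The start of COS12 is shown because it is the member with the largest strain difference and because the study listed its start codon context among mRNAs examined for leaky scanning. The stretch on chromosome VII, written 5′ to 3′ in DNA letters, has 16 bases, and the capitals mark the annotated ATG and the next ATG. It was joined from the listed contexts of both ATGs by the bases they share.
COS12 start: ataggcATGgATGgag
The second ATG begins 4 bases after the first and so lies in another reading frame. Nothing was measured here on which of them is used. The study also names COS12 and COS10 in clusters of neighbouring genes near telomeres that were expressed together in Nmd- strains. It proposes regional de-silencing for such genes, which was not tested here.

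Across the family, 1 of 22 probe sets was higher at 0 min and none was lower, beside 4.28% and 0.701% of all 9275 probe sets. An unadjusted p under 0.05 by limma was seen in 5 of the 22 and in 1741 of all 9275. Over the courses 5 of 22 (22.7%) were higher and none lower, beside 3.67% and 0.097% of all probe sets and 15.9% called higher among 252 other probe sets near chromosome ends. The median difference was 0.24 at 0 min and 0.20 over the courses, against -0.05 and -0.09 over all probe sets. At 0 min the Nmd- values lay above the Nmd+ values without overlap in 4 COS probe sets (13.8% of all probe sets did) and below in 1 (10.8% of all). At 5 or more of the 10 times they lay above without overlap in 7 of 22 probe sets, beside 8.37% of all. Those 7 were COS12, 2 of the COS10 sets and the 4 called COS5 and COS7 sets, which share sequence and are not independent of each other.

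**Figure D1:**
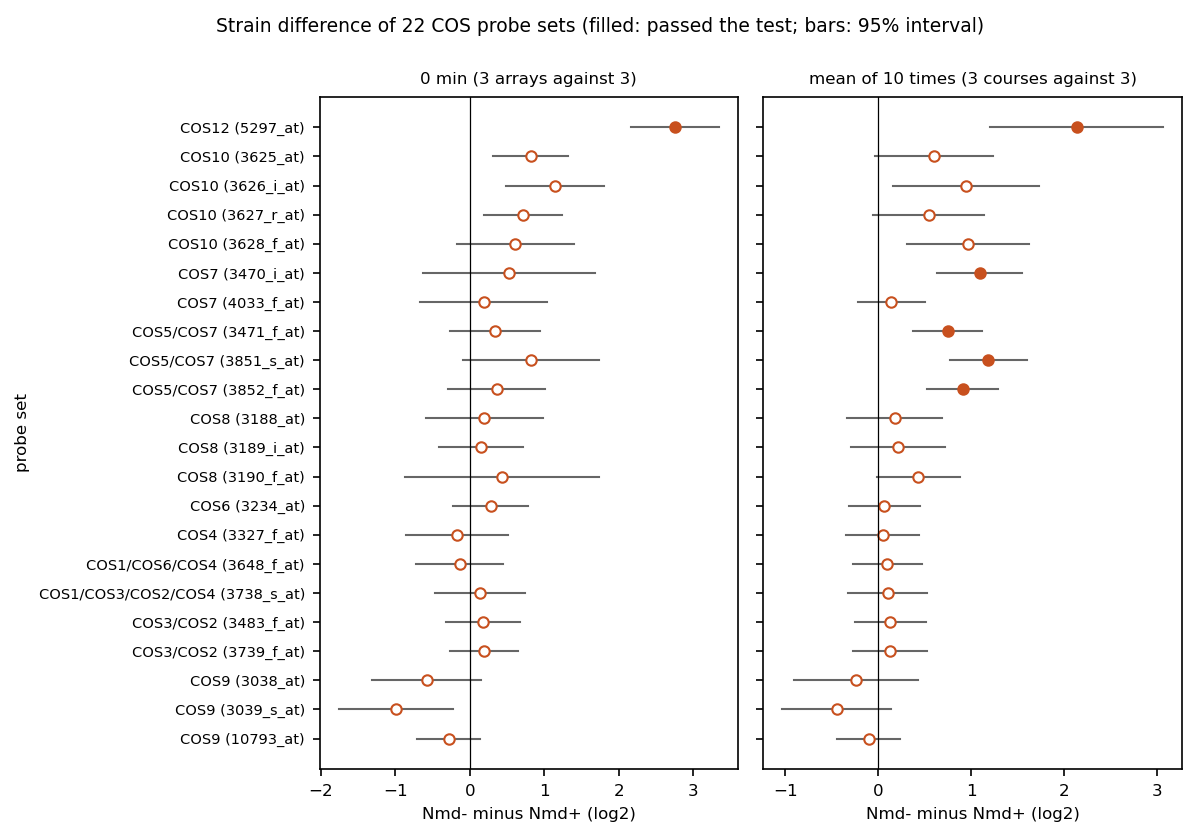
Difference between strains (Nmd- minus Nmd+, log2, horizontal axes) for the 22 COS probe sets (vertical axis) at 0 min on the left and for the mean of 10 times on the right, with 95% intervals as bars and filled points where the test was passed. COS12 is filled in both panels at 2.76 and 2.14, and 4 COS5 and COS7 sets are filled on the right at 0.75 to 1.19.

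COS12 was the member that set the strains apart at 0 min. In the Nmd+ cultures its log2 values were 2.86, 3.46 and 3.48 in replicates 1, 2 and 3, and in the Nmd- cultures they were 5.74, 5.98 and 6.36. The lowest Nmd- value was above the highest Nmd+ value by more than the whole spread within either strain. Means were 3.27 ± 0.36 (SD, n = 3) for Nmd+ cultures and 6.02 ± 0.31 (SD, n = 3) for the mutant, a 6.76-fold difference (log2 2.76, standard error 0.26, 95% interval 2.17 to 3.35, adjusted p = 0.00172 by limma over all probe sets). The COS12 probe set was among the dim ones that a filter on low mean signal removed, and how far its Nmd+ signal lay above background was not measured. COS12 stayed called when any 1 of the 6 arrays was left out (log2 2.55 to 2.90), and within the scan periods that held both strains the difference was 2.69 in the second (2 Nmd- arrays against 1 Nmd+ array) and 2.27 in the third (1 against 1).

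The difference in COS12 went on through the courses. At each of the 10 times the 3 Nmd- values lay above the 3 Nmd+ values, with differences of 1.55 to 2.76, and it was the 1 member of 22 of which this held, beside 2.18% of all probe sets. The course means over the 10 times were 2.90, 3.36 and 3.49 in Nmd+ and 4.50, 5.50 and 6.15 in Nmd-. The Nmd- courses were thus further from each other than the Nmd+ courses were, with replicate 1 lowest. The mean difference was 2.14 (4.39-fold, standard error 0.40, 95% interval 1.20 to 3.07, adjusted p = 0.0284 by limma on 6 courses), and it was 1.60 in replicate 1 and 2.40 in replicates 2 and 3. Without 2 and 6 min it was 2.25 (adjusted p = 0.0178). Leaving out 1 course moved the difference between 1.75 and 2.58 and the adjusted p between 0.00948 and 0.121, and the call was kept in that series only without Nmd- replicate 1, whereas with all 16 times as labelled the difference was 1.80 and the adjusted p 0.1003.

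**Figure D2:**
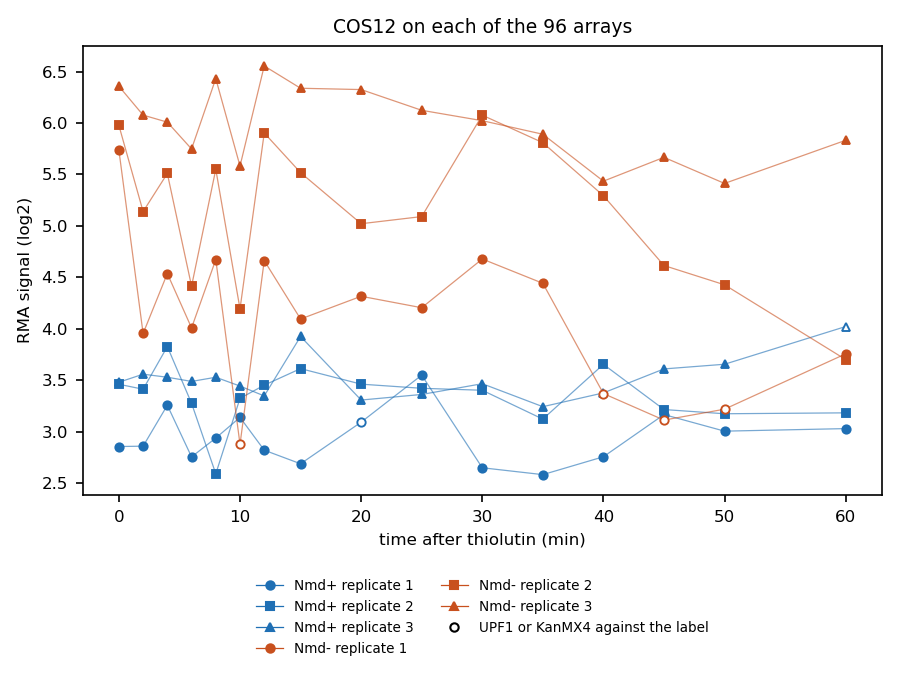
COS12 signal (log2, vertical axis) against time after thiolutin (min, horizontal axis) on each of the 96 arrays, with a line and symbol for each course and open symbols for the 6 arrays whose *UPF1* or KanMX4 value went against the label. The filled Nmd- points lie above all filled Nmd+ points at every time, and the open Nmd- points at 10, 40, 45 and 50 min lie among those of Nmd+, between 2.88 and 3.37.

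Within the Nmd- courses COS12 varied with the libraries that stood apart. At 6 min its values were 4.01, 4.41 and 5.75 in replicates 1, 2 and 3, below the 4.54, 5.51 and 6.01 at 4 min and the 4.67, 5.55 and 6.43 at 8 min of the same courses. All 3 courses dipped at the time at which their arrays lay late on the axis of common change. At 60 min the Nmd- values were 3.76, 3.70 and 5.83, so that replicates 1 and 2 were near the Nmd+ values of 3.03 and 3.18 while replicate 3 was not. The library labelled Nmd+ replicate 3 at 60 min, with KanMX4 at 11.3, just under the Nmd- range, and *UPF1* at 5.43, within the Nmd+ range, read 4.02.

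COS10 came next at 0 min but did not pass the test. Its 4 probe sets are annotated with COS10 alone, but 3628_f_at is of the type common to a sequence family. In the probe set 3626_i_at the Nmd+ values were 7.13, 7.01 and 6.24 and the Nmd- values 7.60, 8.07 and 8.13, with no overlap. The difference was 1.14 (2.20-fold, standard error 0.28, 95% interval 0.48 to 1.80, adjusted p = 0.0688 by limma). The other 3 COS10 probe sets had differences of 0.61 to 0.81 with adjusted p of 0.0817 to 0.387. Over the 10 times the COS10 probe sets were 0.54 to 0.97 higher in Nmd-, again without a call (adjusted p = 0.157 to 0.508). The courses were not alike here. In 3626_i_at the course means were 7.08, 6.73 and 6.15 in Nmd+ and 6.997, 8.10 and 7.70 in Nmd-, so that replicate 1 showed a difference of -0.08 and replicates 2 and 3 one of 1.46. With the replicate number as a block, 3628_f_at was called higher (0.97, adjusted p = 0.0244), as were 7.31% of all probe sets, and it was called too without Nmd- replicate 1 (1.29, adjusted p = 0.0219). This set was dim, with a median of 2.11 in Nmd+ over the 10 times, and the filter on low mean signal removed it.

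Of the probe sets for COS5 and COS7, 4 of 5 were called over the courses, with smaller differences than that of COS12. For 3851_s_at, 3852_f_at and 3470_i_at the adjusted p was lower than that of COS12. At 0 min none of the 5 passed. In 3851_s_at, which reads both genes, the 0 min values were 7.61, 7.90 and 6.61 in Nmd+ and 8.84, 7.95 and 7.81 in Nmd-, so the strains overlapped (difference 0.83, standard error 0.40, adjusted p = 0.312), while with the scan period as a block the difference was 1.13 and passed (adjusted p = 0.0496). Over the 10 times its course means were 7.28, 6.90 and 7.10 in Nmd+ and 8.47, 8.21 and 8.14 in Nmd-, and at 9 of the 10 times all Nmd- values lay above all Nmd+ values. The difference of the means was 1.19 (2.28-fold, standard error 0.18, 95% interval 0.77 to 1.60, adjusted p = 0.0121 by limma). The other sets reading COS5 and COS7 together, 3852_f_at (0.91, adjusted p = 0.0243) and 3471_f_at (0.75, adjusted p = 0.0494), passed as well, and so did 3470_i_at, annotated as COS7 alone (1.09, adjusted p = 0.0251). The 3470_i_at set was dim, with a median of 3.49 in Nmd+ over the 10 times, and the filter on low mean signal removed it. Another probe set annotated as COS7 alone, 4033_f_at, is of the type common to a sequence family. It differed by 0.14 (95% interval -0.22 to 0.50, adjusted p = 0.747), so the probe sets annotated with this gene gave unlike values.

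The sizes of these 4 differences were steadier than their calls. Leaving out 1 course kept the differences at 1.09 to 1.28 for 3851_s_at, 0.82 to 0.97 for 3852_f_at, 0.68 to 0.80 for 3471_f_at and 0.95 to 1.24 for 3470_i_at. The call of 3851_s_at was lost only without Nmd+ replicate 2 (adjusted p = 0.0866), that of 3470_i_at was kept only without Nmd+ replicate 3, and those of the other 2 were lost in every such fit (adjusted p of at least 0.0558 and 0.0999). The differences in replicate 1 were 1.20, 1.30, 1.08 and 0.86 for 3851_s_at, 3470_i_at, 3852_f_at and 3471_f_at, and those in replicates 2 and 3 were 1.18, 0.99, 0.82 and 0.69. Without 2 and 6 min the 4 calls and that of COS12 were kept. With all 16 times as labelled only 3851_s_at of the 22 was called higher, beside 2.64% of all probe sets, and without 4 min 3470_i_at (adjusted p = 0.0537) and 3471_f_at (adjusted p = 0.0767) were lost.

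No other member passed the test between the strains. The 3 COS8 probe sets had differences of 0.15 to 0.43 at 0 min and 0.18 to 0.43 over the courses, that of COS6 0.28 and 0.06, and the 5 sets that read COS1, COS2, COS3, COS4 or COS6 in various combinations -0.17 to 0.19 and 0.05 to 0.13. For 3739_f_at, of COS2 and COS3, the 95% interval over the courses ran from -0.27 to 0.52, and for 3738_s_at, of COS1 to COS4, from -0.32 to 0.53, so that a difference as large as that of the called COS5 and COS7 sets at 0.75 or more lies outside both intervals. For the COS8 set 3190_f_at the interval over the courses, -0.017 to 0.881, holds such a difference, and its Nmd- values lay above all Nmd+ values at 4 of the 10 times.

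All COS9 probe sets lay below 0, at 0 min and over the courses, and none was called. The set 3039_s_at, though annotated with COS9 alone, is of the type shared by several transcripts. In 3039_s_at the 0 min values were 7.05, 6.92 and 6.33 in Nmd+ and 6.07, 5.09 and 6.15 in Nmd-, without overlap, and the difference was -0.99 (standard error 0.33, adjusted p = 0.158 by limma). The other COS9 probe sets, 3038_at and 10793_at, had differences of -0.58 and -0.28. Over the courses 3039_s_at, 3038_at and 10793_at had -0.45, -0.24 and -0.10 (adjusted p = 0.607 to 0.807 by limma). At 0 min the COS4 set 3327_f_at (-0.17) and 3648_f_at of COS1, COS4 and COS6 (-0.14) lay below 0 as well. The 3038_at and 3039_s_at sets are among the 1000 lowest-numbered probe sets, over which the median difference at 0 min was -0.62, and after each array's drift along the probe set numbers was removed by a running median they had -0.17 and -0.59. The part of this shift in the COS9 values was not tested further.

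Over time the family moved by little and in different directions. The change was measured in each course as the mean of 25, 30 and 35 min minus the mean of 0 and 2 min. A COS10 probe set fell in Nmd-. In 3626_i_at the changes were -1.04, -0.70 and -1.10 in the Nmd- courses and -0.18, -0.67 and -0.14 in the Nmd+ courses, every course going down. The Nmd- mean was -0.95 (standard error 0.16, 95% interval -1.31 to -0.59, adjusted p = 0.0178 by limma), a 1.93-fold fall, and was -0.85 (adjusted p = 0.0176) with 4 min in place of 2 min. The call was lost without Nmd- replicate 1 (adjusted p = 0.151) or replicate 3 (adjusted p = 0.160) and with an intensity trend and robust moderation in the fit (adjusted p = 0.0711). These fits called few or none of all 9275 probe sets. Without replicate 1 they called 2 higher and 1 lower, without replicate 3 7 and 2, and with robust moderation 0 and 0. The main fit called 324 and 316. In the main fit 3626_i_at was the 1 COS probe set of 22 called lower in Nmd-, beside 3.41% of all probe sets, and none was called higher, beside 3.49%. With 45 to 60 min as the late times, which include arrays against their label, all 4 COS10 sets and COS12 were called lower in Nmd-, beside 11.1% of all probe sets, and 2 sets, of COS8 and COS4, higher, beside 9.97%. The other COS10 sets had, by 25 to 35 min, mean changes of -0.74 to -0.42 in Nmd- and did not pass (adjusted p = 0.0521 to 0.136). By 60 min the 3626_i_at values were 6.85, 6.30 and 6.57 in Nmd+ and 5.71, 6.86 and 6.97 in Nmd-, and the strains overlapped. The 6.57 came from the Nmd+ replicate 3 array, which was against its label, and the strains overlapped without it too.

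In Nmd+ a COS9 set, 3039_s_at, was the 1 of 22 called lower over time, beside 11.7% of all probe sets, and none was called higher, beside 8.16%. Its changes were -0.34, -0.96 and -0.65 in the 3 Nmd+ courses (mean -0.65, standard error 0.20, adjusted p = 0.0472), and with 4 min in place of 2 min the mean was -0.34 (adjusted p = 0.332). The call was also lost without any 1 of the Nmd+ courses (adjusted p = 0.0666 to 0.194) and without Nmd- replicate 1 or 3 (adjusted p = 0.0647 and 0.0672). The COS9 set 10793_at had changes of -0.43, -0.79 and -0.41 in Nmd+ (mean -0.55, adjusted p = 0.0233), under the minimum of 1.5-fold. Sets of COS1 to COS4 had changes above 0 in nearly all courses, with means of 0.22 to 0.58 in Nmd+ and 0.33 to 0.57 in Nmd-. In 3738_s_at, of COS1 to COS4, the changes were 0.52, 0.27 and 0.94 in Nmd+ (mean 0.58, adjusted p = 0.0367, below the 1.5-fold minimum) and 0.64, 0.22 and 0.27 in Nmd-. With a slope over 10 times in place of the 2 windows, this set, 3483_f_at of COS2 and COS3 and 3190_f_at of COS8 were called higher in Nmd+, beside 9.04% of all probe sets. These upward changes depend on the reference. Relative to the probe sets that the study treated as stable, the median of all probe sets changed by -0.56 in Nmd+ and -0.36 in Nmd-, 3738_s_at changed by -0.01 in Nmd+, and 10 COS sets were called lower in Nmd+ and 6 in Nmd-, beside 45.7% and 21.3% of all probe sets.

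**Figure D3:**
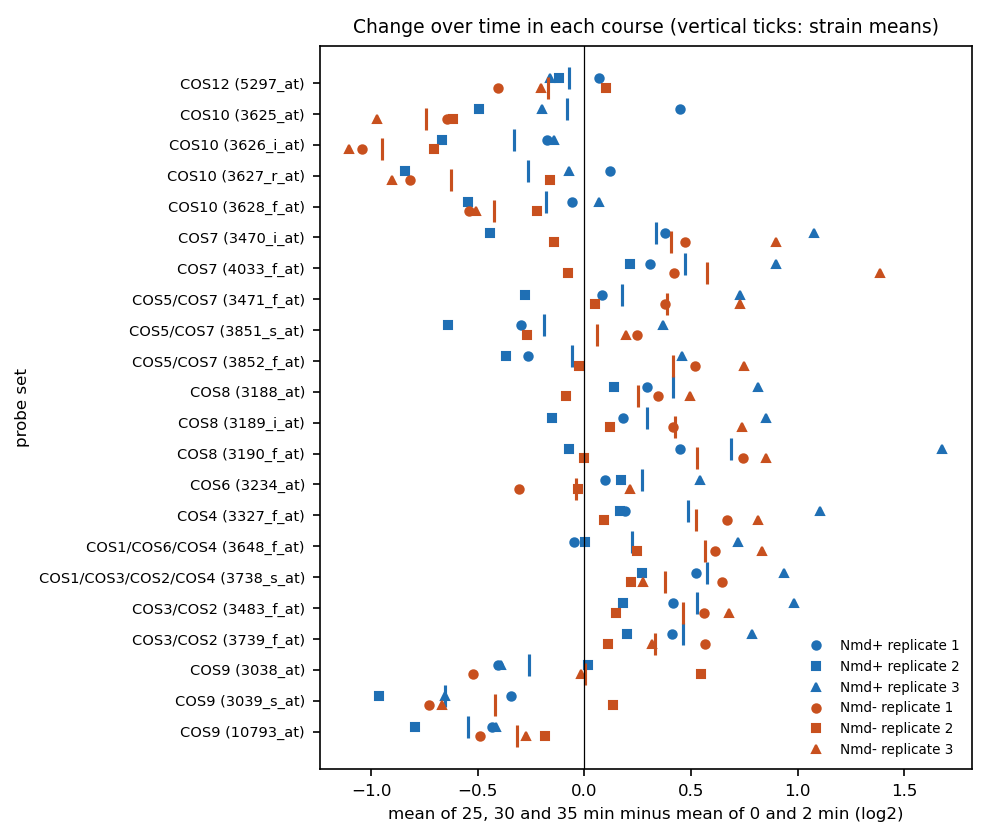
Change over time (mean of 25, 30 and 35 min minus mean of 0 and 2 min, log2, horizontal axis) of the 22 COS probe sets (vertical axis), with a point for each of the 3 courses of a strain and a vertical tick for its mean. The COS10 points of Nmd- lie below 0 throughout, with means of -0.42 to -0.95, and those of the COS1 to COS4 sets lie mostly above 0.

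For no COS probe set did the change over time differ between the strains in the test of the difference itself, and the same was true of every probe set (0.0% of all called by limma, with 2 COS probe sets and 936 of all having an unadjusted p under 0.05). Those 2 COS sets were of COS10, 3626_i_at with a difference of changes of -0.62 (95% interval -1.13 to -0.12, unadjusted p = 0.022, adjusted p = 0.444) and 3625_at with -0.66 (adjusted p = 0.471). For COS12 the difference of changes was -0.10 (95% interval -0.56 to 0.36), with a change of -0.17 in Nmd- and -0.07 in Nmd+, neither of which passed. With 45 to 60 min as the late times the difference of changes was -1.19 (95% interval -1.85 to -0.54, adjusted p = 0.235), with changes of -1.12 in Nmd- and 0.0688 in Nmd+. In that window the Nmd- replicate 1 arrays at 45 and 50 min and the Nmd+ replicate 3 array at 60 min were against their label. Among arrays on the side of theirs, Nmd- replicate 2 went from 5.98 at 0 min to 4.61, 4.43 and 3.70 at 45, 50 and 60 min, and replicate 3 from 6.36 to 5.67, 5.41 and 5.83.

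**Figure D4:**
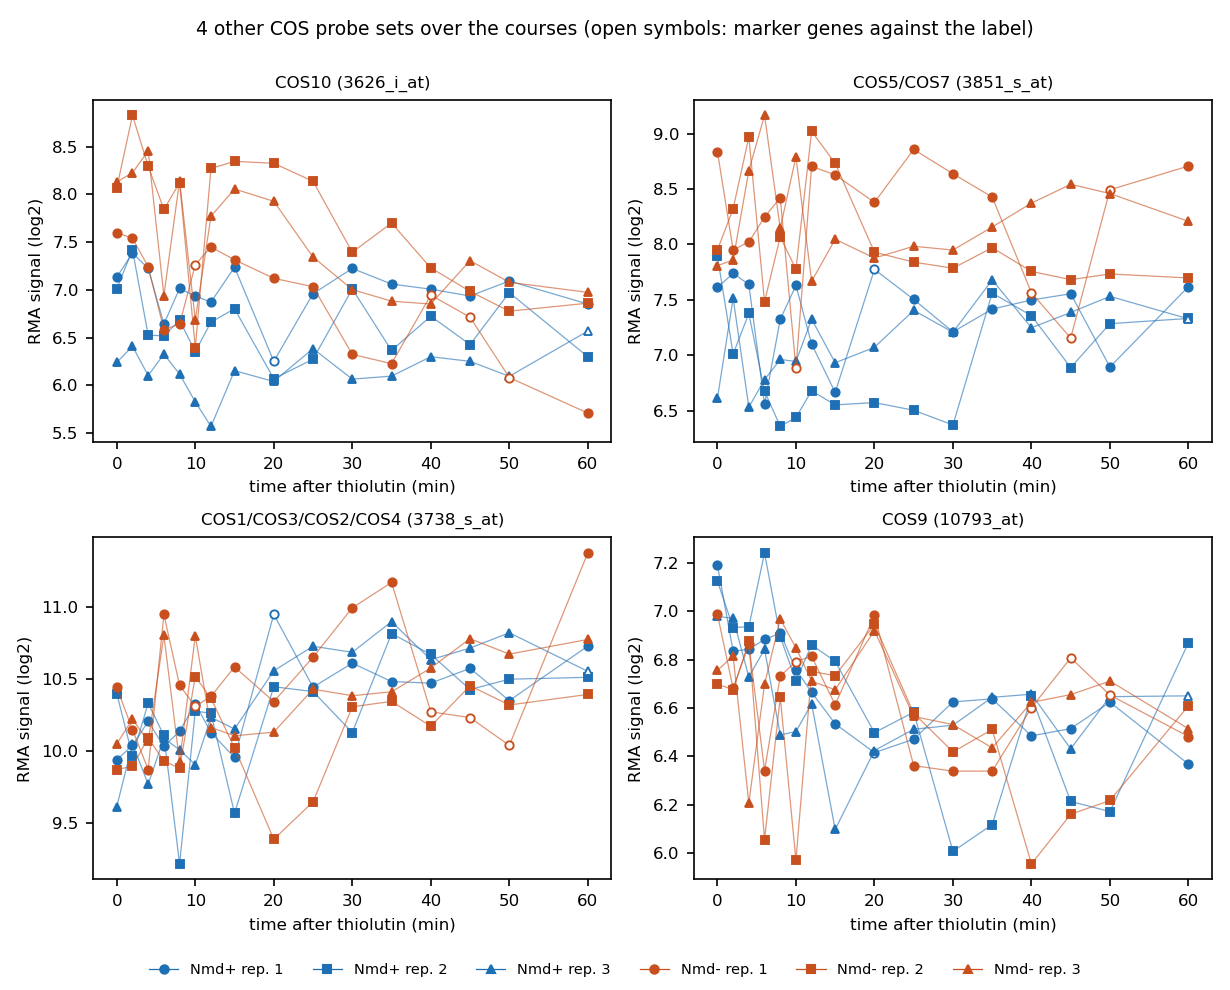
Signal (log2, vertical axes) against time after thiolutin (min, horizontal axes) for a COS10, a COS5 and COS7, a COS1 to COS4 and a COS9 probe set, with a line and symbol for each course and open symbols for arrays whose markers went against the label. The COS5 and COS7 set stays higher in Nmd- at 9 of the 10 times used. At 60 min the COS10 set in Nmd-, at 5.71 to 6.97, overlaps the Nmd+ values, of which that of replicate 3 was against its label.

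Correlations between members over the 96 arrays are given as a description of points that share strains, times and scan periods. Pearson r was 0.786 to 0.882 among the COS8 sets, 0.451 to 0.888 (median 0.799) among the 5 sets naming COS5 or COS7, 0.507 to 0.891 among the COS10 sets and 0.602 to 0.934 among the 5 sets naming COS1 to COS4. The 3 COS9 sets were less alike, with r of 0.169 to 0.633. COS12 had r of 0.388 to 0.814 with the COS10 sets, the highest being with 3628_f_at, whose r with the other COS10 sets was 0.507 to 0.686. COS12 had r of 0.0934 to 0.641 with the COS5 and COS7 sets and -0.0898 to 0.165 with those of COS1 to COS4. The COS10 sets had a median r of -0.399 with those of COS1 to COS4. Some values between groups were as high as within them, up to 0.734 between the COS5 and COS7 sets and those of COS8, and up to 0.712 between COS8 and COS1 to COS4.

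**Figure D5:**
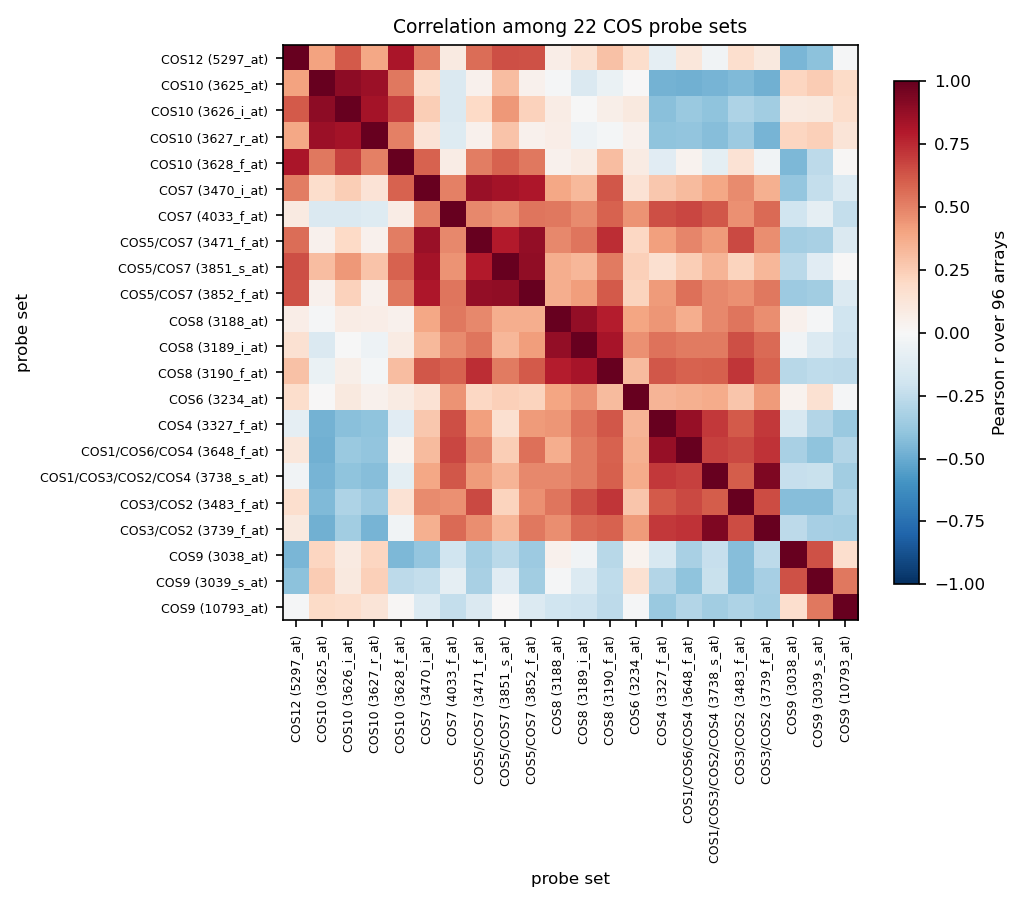
Pearson correlation over 96 arrays (colour, from -1 to 1) between the 22 COS probe sets, in the same order on both axes. The COS8 block lies at 0.786 to 0.882, the COS9 block at 0.169 to 0.633, and COS10 against COS1 to COS4 is mostly below 0, with a median of -0.399.

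The probe sets whose values over the 96 arrays were most like those of COS12 were 6766_at, which carries no gene name (r = 0.957), and those of YIR043C (0.954), *SHU2* (0.939), *PEX35* (0.932) and YIR042C (0.932). All 5 were higher in Nmd- at 0 min (1.69 to 3.59 on the log2 scale). They were chosen by likeness to COS12 over arrays of both strains, 0 min included, so that direction is built into the choice. *SHU2* codes for a subunit of the Shu complex of DNA repair. Within the 48 arrays labelled Nmd- their r with COS12 was 0.839 to 0.931, and within the 48 labelled Nmd+ it was 0.636 to 0.735. Without the arrays against their label it was 0.738 to 0.905 over 44 Nmd- arrays and 0.611 to 0.718 over 46 Nmd+ arrays.

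Genes next to COS genes were measured for comparison. The 8 neighbouring genes with a probe set of their own had 10 probe sets. At 0 min 4 of these sets, each of another gene, were called higher and none lower. Of all probe sets 4.28% were called higher. *FRE2*, a ferric reductase gene next to COS9, had values of 5.39, 5.14 and 5.05 in Nmd+ and 7.30, 6.65 and 6.98 in Nmd- (3.45-fold, adjusted p = 0.00427). *ARN2*, a siderophore transporter gene next to COS8, was 2.80-fold higher (adjusted p = 0.0194), YGL262W next to COS12 2.41-fold (adjusted p = 0.0141) and *AIF1*, a cell death factor gene next to COS10, 1.85-fold (adjusted p = 0.0304). *MPH2*, a maltose permease gene next to COS7, was 2.00-fold higher without passing (adjusted p = 0.0615). Over the courses 3 of the 8 genes had a set called higher, while 3.67% of all probe sets were. *FRE2* and *ARN2* passed again (adjusted p = 0.00535 and 0.0237 by limma). YGL262W, *AIF1* and *MPH2* did not (adjusted p = 0.0602, 0.105 and 0.152). YHL048C-A, on the other side of COS8, passed over the courses (1.84 on the log2 scale, adjusted p = 0.0154) in 1 of its 3 probe sets but not at 0 min, and *SRY1* and YML131W, next to COS9 and COS3, did not pass in either. The differences between a COS gene and its neighbour were not tested. Among the 252 other probe sets with 1 gene name that lie in the outermost 10 genes of a chromosome arm, 49 (19.4%) were called higher at 0 min and 40 (15.9%) over the courses, and none lower.

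Genes tied to the family by sequence or function gave no call between the strains. Of the DUP240 relatives, the other branch of the DUP family, 8 probe sets for 5 of 10 genes were measured, and none was called between strains at 0 min or over the courses. Among sets naming 1 gene, the smallest p at 0 min were those of PRM9 (-1.09, adjusted p = 0.0875), UIP3 (-1.38, adjusted p = 0.142), MST27 (0.57, adjusted p = 0.184) and MST28 (-0.99, adjusted p = 0.338). In Nmd- 3 of the 8 rose over time, UIP3 by 1.15 (adjusted p = 0.0182) and MST28 by 0.71 (adjusted p = 0.0285) among them, beside 3.49% of all probe sets. Of the 22 probe sets for 19 genes of multivesicular body sorting, the route on which Cos proteins act, none was called between strains (VPS36, with 0.55 and adjusted p = 0.245, had the smallest p at 0 min, followed by SNF7, VPS24 and SNF8), and 3 (13.6%) rose over time in Nmd+, beside 8.16% of all probe sets. Sir2, Sir3 and Sir4 silence genes near telomeres, while Sir1 acts at the silent mating type cassettes. Of the 5 probe sets for their genes, none was called between strains. At 0 min 2 lay above 0 and 3 below, with 1 SIR1 set at 0.76 (adjusted p = 0.102) and a SIR2, a SIR3 and a SIR4 set at -0.22 to -0.12. The SIR2 set fell over time in Nmd+, as did 11.7% of all probe sets.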

How the data were processed

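The authors deposited RMA values on a log2 scale, 1 column for each of 96 arrays, and 0 columns of sample values were left unused. The methods describe these values as natural logs, but the highest, 14.2, exceeds what a 16-bit scanner could give as a natural log (11.1), so log2 was taken. Of 9335 probe sets, 60 controls were left out and 9275 tested. Strain, time and replicate came from the sample titles, because the source names gave upf1- for all samples and 0 min for the arrays titled 2 min, which enter the start of each change over time. Gene names came from the platform annotation (6504 probe sets with 1 name, 328 with several, 2443 with none), and gene order from RefSeq. The start sequence of COS12 was built from the study's list of start codon contexts. The 12 bases listed around the start codon and the 12 around the next AUG were joined by the bases they share. The distance between the ATGs rests on that join.

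Strains were compared with limma 3.58.1 in R 4.3.3 at 0 min, over course means of 10 times, and for the change from 0 and 2 min to 25, 30 and 35 min, with Benjamini-Hochberg adjustment over all probe sets. Calls required 1.5-fold or more with an adjusted p below 0.05, or for the difference in change the p alone. The fit was tested on simulated data, and a probe set without a call is not shown to be unchanged. Named were all COS members, their neighbours, the 5 probe sets most like COS12 and the leading genes of 3 related lists. Members and lists were chosen with earlier results of these data known. Same-numbered courses deviated together in course means (r = 0.61, 0.47 and 0.75, against at most 0.095 between other numbers). In changes r was 0.12, 0.30 and 0.16, and for replicate 3 a course of another number reached 0.21. At 0 min r was 0.10, -0.30 and 0.06. The main fits did not use this pairing, which entered only as the replicate block among the alternatives. Replicate number overlapped with scan period. Alternatives were other normalizations, moderation, fold minimums, filters, blocks, time windows and leaving out each course; those built on 4 min in place of 2 min and on omitting 2 and 6 min were chosen after seeing the data.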

Additional observations from a re-analysis of the deposited data

Results flagged for a closer look

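COS12 was also read at the 6 times left out of the course means. Among arrays whose *UPF1* and KanMX4 values were on the side of their label, all 14 Nmd- arrays at these times (3.70 to 6.32, median 5.16) lay above all 16 Nmd+ arrays (2.76 to 3.66, median 3.26). The library labelled Nmd+ replicate 3 at 60 min, with KanMX4 at 11.3, just under the Nmd- range, and *UPF1* at 5.43, within the Nmd+ range, had a COS12 value of 4.02, above every one of those 16.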

How the results depend on the processing

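At 0 min the count of COS probe sets called was 1 in every fit that left out an array, 0 after the filter on dim probe sets, which removes COS12 itself, and 2 with the scan period as a block. Over all probe sets 397 were called higher in the main fit. That became 170 to 281 when an array was left out, 344 of 6956 after the filter and 253 with the block. Over the courses the count of 5 became 1 with all 16 times as labelled, 3 after the dim filter, 3 without 4 min and 0 to 3 when a course was left out, with 0 without Nmd+ replicate 2. Over all probe sets the 340 called higher became 245 with all 16 times, 317 of 6956 after the filter and 309 without 4 min. Leaving out a course gave 72 to 296 called higher, with 72 without Nmd+ replicate 2. With the replicate block, which pairs courses by number, 3628_f_at of COS10 was added (adjusted p = 0.0244) and no other COS call changed, while over all probe sets 678 were higher and 126 lower against 340 and 9. For the change in Nmd+ the count of 1 became 0 with 0 and 4 min as the start, 0 with quantile normalization, 3 without a fold minimum, 10 relative to the reference probe sets, 3 for a slope over 10 times, 2 for that slope without 2 and 6 min, and 0 to 1 when a course was left out. Over all probe sets 757 were called higher and 1081 lower in the main fit. These became 616 and 1020 with 0 and 4 min, 795 and 1041 with quantile normalization, and 946 and 1290 without a fold minimum. They were 255 and 4238 relative to the reference, 838 and 1097 for the slope, and 685 and 996 without 2 and 6 min. Leaving out a course gave 554 to 759 higher and 791 to 1061 lower. For Nmd- the COS count became 7 with 45 to 60 min, which includes arrays against their label, 2 after the dim filter, 0 with a trend and robust moderation, 6 relative to the reference probe sets, 3 with a running median taken out, 2 for either slope, and 0 to 2 when a course was left out. Over all probe sets 324 were called higher and 316 lower in the main fit. These became 925 and 1031 with 45 to 60 min, 352 and 324 after the filter, and 0 and 0 with robust moderation. They were 224 and 1971 relative to the reference, 285 and 274 with the running median, and 336 and 399 or 631 and 791 for the slopes. Leaving out a course gave 2 to 505 higher and 1 to 524 lower. The count for the difference in change was 0 throughout, for COS and for all probe sets. The values that changed sign were never called. For COS12 the difference in change was 0.0123 with quantile normalization, 0.14 relative to the reference probe sets, 0.12 for the slope, -1.19 with 45 to 60 min (no change of sign) and -0.23 to 0.0192 when a course was left out, and its Nmd+ change was 0.0688 with 45 to 60 min. For COS10 in Nmd+ the change was 0.0149 in 3625_at with 0 and 4 min and 0.0271 in 3628_f_at with 45 to 60 min, and leaving out a course gave -0.35 to 0.13 in 3625_at, -0.46 to 0.024 in 3627_r_at and -0.30 to 0.0044 in 3628_f_at. The cause was not tested where construction does not show it. With 3 courses a strain, low signals such as COS12 in Nmd+ and shared sequence between COS genes limit what single probe sets can tell.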
